A study of Arabidopsis thaliana with 21 samples.

Results

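The 10 genes described here encode WRKY transcription factors that respond to stress: WRKY18, WRKY33, WRKY38, WRKY40, WRKY46, WRKY53, WRKY54, WRKY60, WRKY62 and WRKY70. They were chosen by locus from a deposited table of 32833 Arabidopsis thaliana genes, and all 10 were found there. RNA came from whole seedlings, 7 days old, kept in liquid MS medium. Each of 7 groups held 3 libraries. Col was the wild type. Of the 6 transgenic lines, H89C11-7, H89C23-10 and H89C4-7 carry the AtNEET-H89C protein, which the series title describes as dominant-negative, and NEET10-10, NEET11-9 and NEET5-4 are named after AtNEET, an iron-sulfur protein. The study asked about iron-sulfur metabolism and iron homeostasis. The promoter driving the transgenes, and whether replicate libraries were made from different cultures, are not stated in the sources used here. The p-values cover the spread among replicate libraries, which may be technical.

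WRKY proteins are plant transcription factors that bind the W-box, a short DNA motif with the core TTGAC, and many WRKY genes carry W-boxes in their own promoters. WRKY33 drives the synthesis of the phytoalexin camalexin and acts downstream of the MAP kinases MPK3 and MPK6. WRKY18, WRKY40 and WRKY60 are close relatives that pair through leucine zippers and restrain immune and abscisic acid responses. WRKY46, WRKY53, WRKY54, WRKY70, WRKY38 and WRKY62 belong to the group III branch, whose members act in salicylic acid signalling, basal defence and leaf senescence.

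The 10 genes spanned a wide range of levels. Per kilobase of exon, averaged over the 21 libraries, WRKY33 had the highest level with a normalized count of 1165, followed by WRKY70 with 276, WRKY40 with 198, WRKY53 with 109 and WRKY60 with 102. WRKY18 stood at 84.5, WRKY46 at 53.2, WRKY54 at 21.3, WRKY38 at 6.19 and WRKY62 at 1.46 on the same scale. A total of 50864 reads fell on WRKY33 in all libraries, but 172 on WRKY38 and 33 on WRKY62. Of the 10 genes, 9 passed the filter, a normalized count of 10 or more in 3 or more libraries. WRKY62 did not, and WRKY38 passed through the 3 H89C11-7 libraries and 1 of NEET11-9, so its rise in H89C11-7 is bound up with passing the filter.

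Promoter sequence was read for each gene as the 250 bases before its annotated start, on the strand of the gene, from the RefSeq assembly TAIR10.1. The motif searched was TTGACC or TTGACT on both strands, and no match overlapped another. WRKY33, WRKY53 and WRKY62 each held 2 matches and the other 7 genes held none. Among 27443 protein-coding genes of the table, 28.4% of the windows held at least 1 match and 6.18% held at least 2. Of 62 other WRKY genes, 35.5% held at least 1. The shorter core TTGAC, which lies inside both motifs, was found in 7 of the 10 windows and in 44.9% of all. A match describes letters, not a bound site. The promoters shown belong to WRKY33, WRKY53, WRKY40 and WRKY46, which all had their highest group means in NEET10-10. The group means of WRKY46 also spanned the widest fold range of the 9 tested genes. Capitals mark the motif, which reads GGTCAA or AGTCAA when it lies on the opposite strand.
WRKY33: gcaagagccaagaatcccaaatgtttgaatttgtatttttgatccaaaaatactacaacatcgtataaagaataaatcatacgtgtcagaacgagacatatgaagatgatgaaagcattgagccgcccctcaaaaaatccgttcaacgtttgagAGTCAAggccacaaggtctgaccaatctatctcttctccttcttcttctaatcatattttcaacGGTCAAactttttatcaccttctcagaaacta
WRKY53: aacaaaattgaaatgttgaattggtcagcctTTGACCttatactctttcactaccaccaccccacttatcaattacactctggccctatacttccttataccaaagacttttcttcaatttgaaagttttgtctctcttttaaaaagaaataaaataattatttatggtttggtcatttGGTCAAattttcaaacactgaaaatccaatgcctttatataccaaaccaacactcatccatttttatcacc
WRKY40: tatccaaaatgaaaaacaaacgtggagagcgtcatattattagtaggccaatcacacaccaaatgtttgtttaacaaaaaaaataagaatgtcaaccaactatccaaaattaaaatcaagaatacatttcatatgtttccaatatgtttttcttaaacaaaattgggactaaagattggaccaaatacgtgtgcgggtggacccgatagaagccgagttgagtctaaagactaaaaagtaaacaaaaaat
WRKY46: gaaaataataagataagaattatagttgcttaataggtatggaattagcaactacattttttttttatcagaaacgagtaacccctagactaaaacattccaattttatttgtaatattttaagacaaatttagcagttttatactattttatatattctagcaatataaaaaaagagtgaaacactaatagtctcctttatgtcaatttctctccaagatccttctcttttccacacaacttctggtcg
The WRKY33 window is chr2:16107985-16108234 on the plus strand and the WRKY53 window is chr4:12393983-12394232 on the minus strand. The WRKY40 window is chr1:30383311-30383560 on the plus strand and the WRKY46 window is chr2:19044956-19045205 on the minus strand. In WRKY33 both matches lie on the opposite strand, at positions -96 to -91 and -32 to -27 from the gene start. In WRKY53 they lie at -219 to -214 on the gene strand and at -71 to -66 on the opposite strand. None of these windows overlaps another annotated gene.

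**Figure D1:**
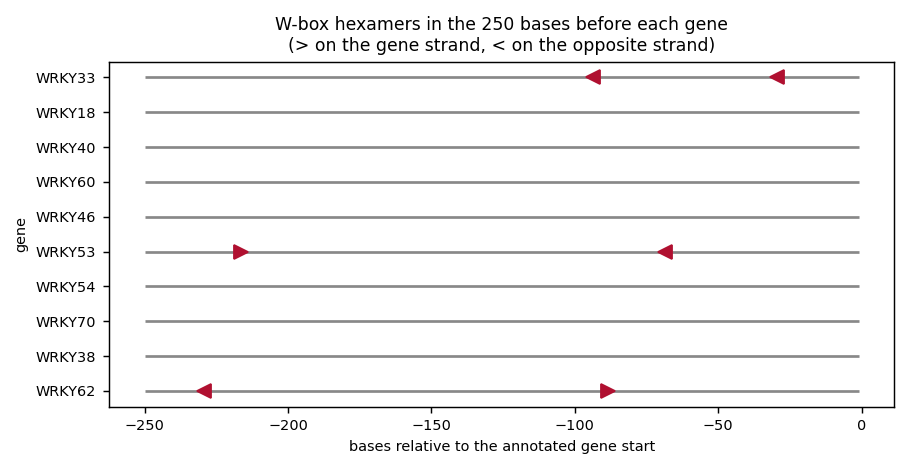
W-box hexamers (TTGACC or TTGACT) in the 250 bases before each of the 10 genes; the x axis gives bases from the annotated gene start, right-pointing triangles stand for matches on the gene strand and left-pointing ones for the opposite strand. WRKY33, WRKY53 and WRKY62 carry 2 matches each and the other 7 genes carry none.

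Recovered library totals ran from 8.24 to 24.68 mega (M) reads, the lowest in Col replicate 3 and the next lowest 17.88 M. Replicate 1 of Col and replicate 1 of NEET10-10 differed more from their fellow replicates than was seen elsewhere. AtNEET (AT5G51720) had a normalized count of 261 ± 93.9 (SD, n = 3) in Col and means of 332 in NEET11-9, 1299 in H89C23-10, 2380 in H89C11-7, 16100.2 in H89C4-7, 18191 in NEET5-4 and 32837 in NEET10-10. The label "complete seedling" was checked with 5 shoot and 7 root marker genes, all of which passed the filter. None of these was at 0 in any library. The summed shoot markers had their lowest group mean in NEET10-10, with libraries from 137739 to 169922 against 220615 to 230225 in Col. The summed root markers were also lowest there, from 71626 to 75454 against 80730 to 89930 in Col, and highest in H89C23-10, from 114957 to 118246. In the other 5 lines the shoot sums lay between 186392 and 215586, and in those but H89C23-10 the root sums lay between 80355 and 99729. Counted by gene, the root markers called higher and lower against Col (limma) were 1 and 1 in NEET10-10, 2 and 5 in H89C4-7, and 0 and 5 in H89C11-7. Of all tested genes, 30.3%, 66.6% and 37.7% were called in these lines. The counts were 2 and 0 in H89C23-10, and 0 and 0 in NEET11-9 and NEET5-4. In H89C4-7 the root sum thus lay above Col while most of the root genes were lower. The part of these differences in the results below was not tested. In whole seedlings, fewer cells of a type and less RNA per cell cannot be told apart.

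WRKY33 (AT2G38470, TAIR10.1 chr2:16108235-16110766, plus strand) was high in NEET10-10 and low in NEET5-4. Its normalized counts were 1647, 2169 and 2403 in Col, 6725, 6262 and 6179 in NEET10-10, 1396, 1388 and 1456 in NEET11-9, and 960, 1007 and 1067 in NEET5-4. The NEET10-10 libraries all lay above every other library, and those of NEET5-4 below every other library. Among the H89C lines the counts were 2071, 2180 and 2182 in H89C11-7, 1749, 1981 and 1952 in H89C4-7, and 1701, 1596 and 1529 in H89C23-10. H89C11-7 and H89C4-7 lay within the Col range. In H89C23-10, 1 library lay inside that range and the other 2 below it. The level in NEET10-10 was 3.12-fold that of Col (log2 change 1.64, SE 0.085, limma adjusted p = 1.65e-13). It was 2.03-fold lower in NEET5-4 (adjusted p = 3.93e-10), 1.45-fold lower in NEET11-9 (adjusted p = 8.1e-05) and 1.27-fold lower in H89C23-10 (adjusted p = 0.00392, limma). The call in H89C23-10 is lost when only that line and Col are fitted (limma adjusted p = 0.0849). H89C11-7 and H89C4-7 did not pass the test against Col. From lowest to highest the groups ran NEET5-4, NEET11-9, H89C23-10, H89C4-7, Col, H89C11-7 and NEET10-10, and 3 of the 6 steps between neighbours passed the test. The steps from NEET11-9 to H89C23-10, from H89C4-7 to Col and from Col to H89C11-7 did not. WRKY33 shares 26 bases with the antisense gene AT2G38480 and 272 bases with AT2G08965, which had a mean of 1.41 in Col.

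**Figure D2:**
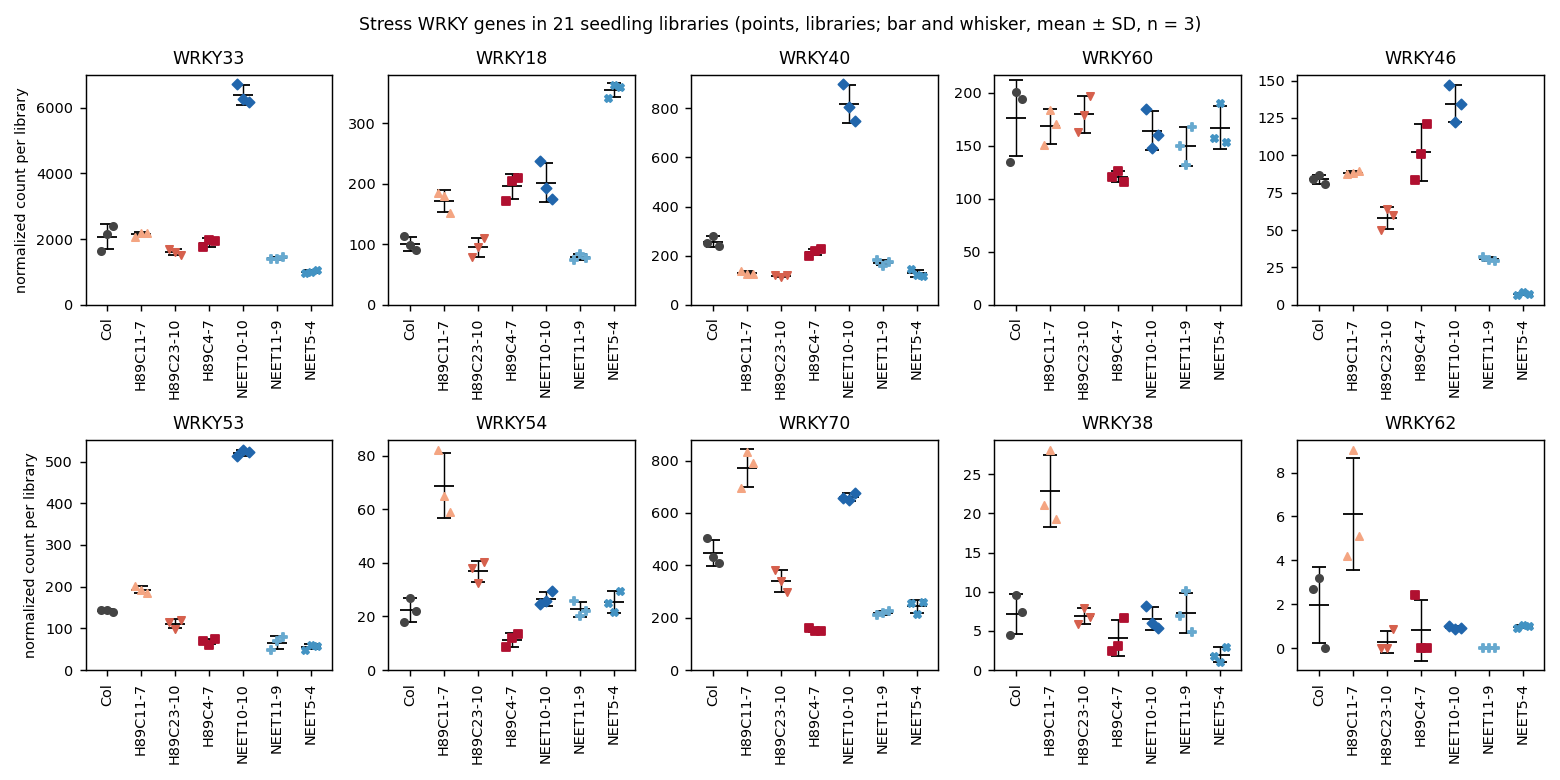
Normalized counts of the 10 WRKY genes in 21 seedling libraries, 1 panel per gene; the y axis is the normalized count, points are libraries, and bars with whiskers give the group mean ± SD (n = 3). WRKY33, WRKY40, WRKY46 and WRKY53 reach their highest counts in NEET10-10, WRKY18 in NEET5-4, and WRKY54, WRKY38 and WRKY70 in H89C11-7.

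WRKY40 (AT1G80840, chr1:30383561-30385499, plus strand) belongs to the leucine zipper trio and is induced quickly by wounding and elicitors. It was called against Col in all 6 lines, higher in NEET10-10 and lower in the other 5. Its normalized counts were 250, 282 and 238 in Col and 898, 807 and 748 in NEET10-10. They were 144, 122 and 119 in NEET5-4, 180, 159 and 174 in NEET11-9, 138, 123 and 126 in H89C11-7, 120, 112 and 120 in H89C23-10, and 199, 219 and 226 in H89C4-7. No library of the 5 lower lines reached the lowest Col library. The level in NEET10-10 was 3.18-fold that of Col (log2 change 1.67, SE 0.097, limma adjusted p = 1.76e-12). It was 2.17-fold lower in H89C23-10 (adjusted p = 4.63e-09), 1.98-fold lower in H89C11-7 (adjusted p = 1.72e-08), and 1.19-fold lower in H89C4-7 (limma adjusted p = 0.0244), a call that is lost without Col replicate 2 (adjusted p = 0.13) or without H89C4-7 replicate 1 (adjusted p = 0.107). The log2 change was -0.998 in NEET5-4 and -0.58 in NEET11-9, both called. In the order H89C23-10, NEET5-4, H89C11-7, NEET11-9, H89C4-7, Col and NEET10-10, the first 3 groups were not told apart by their neighbouring steps and the other 4 steps passed the test. WRKY40 shares 51 bases with the antisense gene AT1G80850, which was also called lower in H89C4-7 (log2 change -0.47, limma adjusted p = 0.0043) and in NEET5-4 (log2 change -0.51, limma adjusted p = 0.00602) and in none of the other 4 lines.

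WRKY18 (AT4G31800, chr4:15382777-15385100, plus strand), the partner of WRKY40 in many of its functions, had its highest level in a different line. Its normalized counts were 114, 98.5 and 90.7 in Col, 343, 363 and 360 in NEET5-4, 238, 194 and 174 in NEET10-10, and 73.8, 83.7 and 77.5 in NEET11-9. The H89C lines held 172, 205 and 210 in H89C4-7, 184, 179 and 152 in H89C11-7, and 78.4, 95.1 and 111 in H89C23-10. All libraries of NEET5-4, NEET10-10, H89C4-7 and H89C11-7 lay above all Col libraries. WRKY18 rose 3.51-fold in NEET5-4 (log2 change 1.81, SE 0.131, limma adjusted p = 2.88e-11), 1.98-fold in NEET10-10 (adjusted p = 2.4e-06), 1.93-fold in H89C4-7 (adjusted p = 6.54e-07) and 1.70-fold in H89C11-7 (limma adjusted p = 5.41e-05). In NEET11-9 each library lay below each Col library, yet the log2 change of -0.36 did not pass the test (limma adjusted p = 0.0819). The order was NEET11-9, H89C23-10, Col, H89C11-7, H89C4-7, NEET10-10 and NEET5-4. The steps into H89C11-7 and into NEET5-4 passed the test and the other 4 did not.

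WRKY60 (AT2G25000, chr2:10629662-10631413, plus strand), the member of the trio that WRKY18 and WRKY40 act on in abscisic acid responses, varied least. Its group means ran from 121 in H89C4-7 to 180 in H89C23-10, a 1.48-fold range. The libraries were 135, 200 and 194 in Col and 121, 126 and 116 in H89C4-7, and the 3 of H89C4-7 lay below all Col libraries. The change in H89C4-7 was a 1.43-fold fall (log2 change -0.52, SE 0.136, limma adjusted p = 0.00165). No other line was called against Col, and none of the 6 steps between neighbouring groups passed the test. Without the first libraries of Col and NEET10-10, WRKY60 was also called lower in NEET11-9 (log2 change -0.40, limma adjusted p = 0.0262) and in NEET10-10 (log2 change -0.35, limma adjusted p = 0.0495).

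The ratio of WRKY18 to WRKY40, each per kilobase of exon, shows how differently these partners moved. It was 0.258 ± 0.035 (SD, n = 3) in Col, 0.161 ± 0.011 in NEET10-10 and 0.301 ± 0.039 in NEET11-9. In NEET5-4 it was 1.83 ± 0.235, and this was the group in which WRKY18 exceeded WRKY40 in all 3 libraries. H89C11-7 had a ratio of 0.870 ± 0.083, H89C4-7 of 0.594 ± 0.027 and H89C23-10 of 0.529 ± 0.090. WRKY33 and WRKY40 kept a steadier ratio in most groups: 5.31 ± 1.18 in Col, 5.12 ± 0.256 in NEET10-10 and 5.21 ± 0.773 in NEET5-4. NEET11-9 had 5.41 ± 0.324 and H89C4-7 had 5.76 ± 0.132. The ratio was 10.9 ± 0.952 in H89C11-7 and 8.97 ± 0.584 in H89C23-10. WRKY40 was called lower than Col in these 2 lines, but also in NEET5-4, NEET11-9 and H89C4-7. These ratios are descriptions and were not tested.

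**Figure D3:**
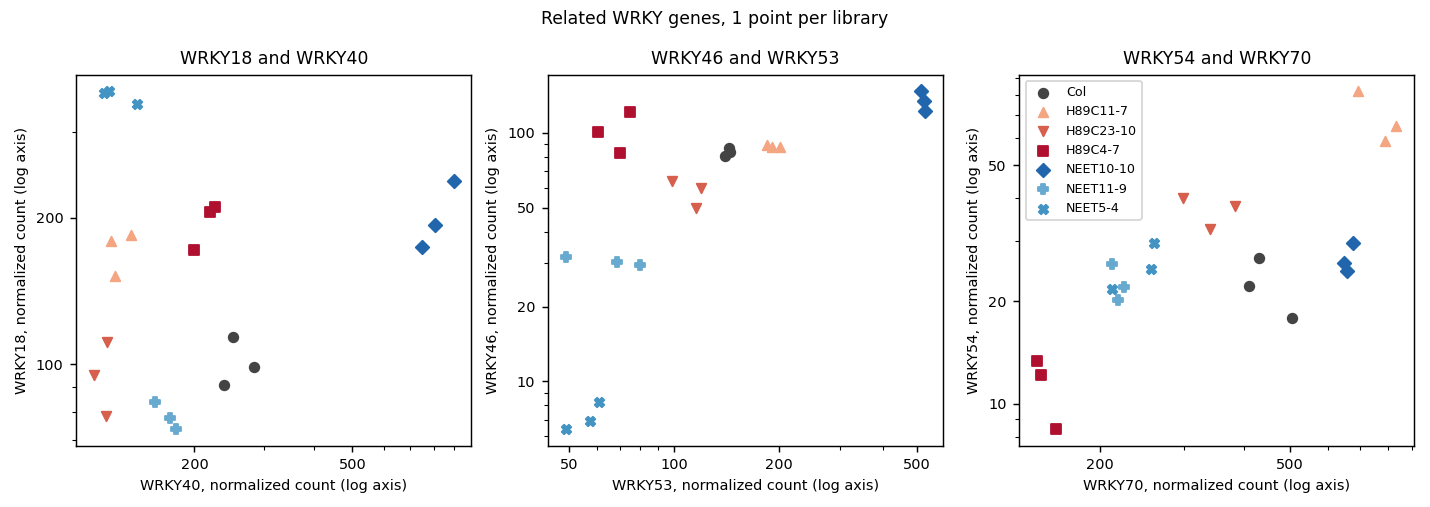
Normalized counts of related WRKY genes against each other on log axes, 1 point per library, for WRKY18 and WRKY40, WRKY46 and WRKY53, and WRKY54 and WRKY70. NEET5-4 lies high for WRKY18 and low for WRKY40, and low for both WRKY46 and WRKY53; H89C4-7 lies low for both WRKY54 and WRKY70.

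WRKY46 (AT2G46400, chr2:19043411-19044955, minus strand), which acts with WRKY70 and WRKY53 in basal resistance and represses the iron transporter gene VTL1, fell furthest of the members in NEET5-4. Col had normalized counts of 84.0, 86.8 and 80.9, and NEET5-4 had 6.45, 8.28 and 6.92. They were 31.7, 30.1 and 29.4 in NEET11-9 and 147, 122 and 134 in NEET10-10. The H89C lines held 87.5, 88.1 and 89.5 in H89C11-7, 49.7, 64.3 and 59.8 in H89C23-10, and 83.4, 101 and 121 in H89C4-7. The 3 NEET lines thus covered the whole range, with no overlap between any of them, and the H89C lines lay between NEET11-9 and NEET10-10. WRKY46 was 10.4-fold lower than Col in NEET5-4 (log2 change -3.38, SE 0.155, limma adjusted p = 3.23e-15), 2.70-fold lower in NEET11-9 (adjusted p = 2.29e-07) and 1.59-fold higher in NEET10-10 (limma adjusted p = 0.0018). The 1.45-fold fall in H89C23-10 (limma adjusted p = 0.0144) is lost without replicate 1 of that line (adjusted p = 0.0871). VTL1 itself was called against Col in H89C23-10 alone among the 6 lines, where it was lower (log2 change -0.87, limma adjusted p = 0.0275). Without the first libraries of Col and NEET10-10 it was called in none.

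WRKY53 (AT4G23810, chr4:12392370-12393982, minus strand), a promoter of leaf senescence, was highest in NEET10-10. Its normalized counts were 145, 144 and 140 in Col, 513, 527 and 524 in NEET10-10, 48.9, 68.7 and 79.9 in NEET11-9, and 48.8, 61.0 and 57.3 in NEET5-4. They were 202, 191 and 185 in H89C11-7, 115, 98.6 and 120 in H89C23-10, and 70.1, 60.6 and 74.5 in H89C4-7. Every library of NEET10-10 and H89C11-7 lay above Col and every library of the other lines lay below it. The level was 3.63-fold that of Col in NEET10-10 (log2 change 1.86, SE 0.137, limma adjusted p = 1.19e-10) and 1.35-fold in H89C11-7 (adjusted p = 0.0149, and 0.0551 without replicate 1 of that line). It was 2.54-fold lower in NEET5-4 (adjusted p = 1.5e-08), 2.19-fold lower in NEET11-9 (adjusted p = 1.41e-06) and 2.08-fold lower in H89C4-7 (limma adjusted p = 2.46e-07). H89C23-10 missed the threshold with limma (adjusted p = 0.0603) but was called lower on recovered reads by edgeR (adjusted p = 0.0266) and DESeq2 (adjusted p = 0.0422). In the order of levels NEET5-4, NEET11-9 and H89C4-7 were not told apart by neighbouring steps, nor were H89C23-10 and Col, and the remaining 3 steps passed the test. WRKY53 shares 341 bases with the antisense gene AT4G23800, whose mean was 1214 in Col and 1326 in NEET10-10 and was not called there (limma adjusted p = 0.368). The same antisense gene was called lower in H89C4-7 (log2 change -0.60) and higher in NEET5-4 (log2 change 0.42).

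WRKY70 (AT3G56400, chr3:20908711-20910623, minus strand), which links salicylic acid and jasmonate signalling and delays senescence together with WRKY54, was called against Col in all 6 lines. The libraries held normalized counts of 503, 431 and 409 in Col, 693, 834 and 789 in H89C11-7, and 657, 649 and 676 in NEET10-10. They were 162, 150 and 148 in H89C4-7, 212, 219 and 225 in NEET11-9, 256, 212 and 260 in NEET5-4, and 383, 341 and 299 in H89C23-10. None of the 6 lines overlapped Col. The level rose 1.72-fold in H89C11-7 (adjusted p = 4.39e-07) and 1.48-fold in NEET10-10 (limma adjusted p = 5.92e-05). It fell 2.90-fold in H89C4-7 (log2 change -1.53, SE 0.095, limma adjusted p = 3.2e-13), 2.04-fold in NEET11-9 (adjusted p = 1.68e-08), 1.84-fold in NEET5-4 (adjusted p = 4.29e-08) and 1.31-fold in H89C23-10 (limma adjusted p = 0.00371). In the order H89C4-7, NEET11-9, NEET5-4, H89C23-10, Col, NEET10-10 and H89C11-7, the steps from NEET11-9 to NEET5-4 and from NEET10-10 to H89C11-7 did not pass the test and the other 4 did.

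WRKY54 (AT2G40750, chr2:17000419-17002528, minus strand), the closest relative of WRKY70, changed in the H89C lines. Its normalized counts were 17.9, 26.8 and 22.1 in Col, 82.2, 65.1 and 59.0 in H89C11-7, 37.9, 32.6 and 40.1 in H89C23-10, and 8.46, 12.1 and 13.3 in H89C4-7. In the NEET lines they lay between 20.1 and 29.6. The libraries of each H89C line were clear of Col, while those of each NEET line overlapped it. WRKY54 was 3.01-fold higher in H89C11-7 (log2 change 1.59, SE 0.219, limma adjusted p = 2.8e-06) and 1.89-fold lower in H89C4-7 (limma adjusted p = 0.00067). The 1.64-fold rise in H89C23-10 (limma adjusted p = 0.0196) is lost without Col replicate 1 (adjusted p = 0.0993), without replicate 1 of the line (adjusted p = 0.0594) or without its replicate 3 (adjusted p = 0.0789), and with DESeq2 on recovered reads (adjusted p = 0.0523). None of the 3 NEET lines was called, with log2 changes of 0.03 to 0.26. The 95% interval of the change in NEET10-10 was -0.21 to 0.73.

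WRKY38 (AT5G22570) and WRKY62 (AT5G01900), a pair that limits basal defence and is induced by salicylic acid, were near the floor of detection. WRKY38 had normalized counts of 21.1, 28 and 19.3 in H89C11-7, of 4.47, 9.64 and 7.35 in Col, and of 1.84, 1.03 and 2.96 in NEET5-4. The H89C11-7 libraries stood above all 18 others, which reached at most 10.0. The log2 change against Col was 1.58 in H89C11-7 (SE 0.402, limma adjusted p = 0.00296) and -1.47 in NEET5-4 (adjusted p = 0.00616, and 0.0542 with DESeq2 on recovered reads). WRKY38 passed the filter mainly through its high level in H89C11-7, so the p-value of its rise there is not independent support. WRKY62 reached 4.22, 9.01 and 5.09 in H89C11-7 and was at 2.68, 3.21 and 0 in Col. It had 0 reads in all 3 NEET11-9 libraries and at most 2.42 in any library of the remaining groups. It was not tested, and at this depth levels in the low groups cannot be compared.

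Counted by line, H89C11-7 had 5 WRKY genes called higher and 1 lower of 9 tested, where 37.7% of all 20699 tested genes were called. WRKY38, 1 of those 5, entered the test mainly through the H89C11-7 libraries, and without it 4 were higher and 1 lower of 8. H89C23-10 had 1 higher and 4 lower (22.1% of all genes called), H89C4-7 had 1 higher and 5 lower (66.6%), NEET10-10 had 6 higher and 0 lower (30.3%), NEET11-9 had 0 higher and 5 lower (10.9%), and NEET5-4 had 1 higher and 6 lower (31%). The count in H89C4-7, 6 of 9, is near its background. In NEET10-10, 15.6% of all genes were called higher, and the 6 WRKY genes were WRKY18, WRKY33, WRKY40, WRKY46, WRKY53 and WRKY70. In NEET11-9, 6.44% of all genes were called lower, and the 5 WRKY genes were WRKY33, WRKY40, WRKY46, WRKY53 and WRKY70. NEET5-4 had the same 5 lower, with WRKY38, and had WRKY18 higher, while 16.9% of all its tested genes were called lower. The median log2 change of the 9 genes was 0.67 in NEET10-10, -0.53 in NEET11-9 and -0.998 in NEET5-4, where the medians of all genes tested were 0.00, 0.00 and 0.01. With a further limit of 2-fold, 2 genes were called in H89C11-7 (4.18% of all genes), WRKY54 and WRKY38, the latter again bound up with the filter. The counts were 1 in H89C23-10 (1.4%), 2 in H89C4-7 (15.9%), 3 in NEET10-10 (1.87%), 3 in NEET11-9 (1.58%) and 5 in NEET5-4 (3.94%). WRKY38 is among the 6 lower and the 5 at 2-fold in NEET5-4, and is near the floor there. Its call in NEET5-4 is lost with DESeq2 on recovered reads (adjusted p = 0.0542). It is also lost when only that line and Col are fitted (limma adjusted p = 0.0519). The median of the 9 genes was -0.35 in H89C23-10 and -0.52 in H89C4-7. All 6 comparisons share the 3 Col libraries.

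**Figure D4:**
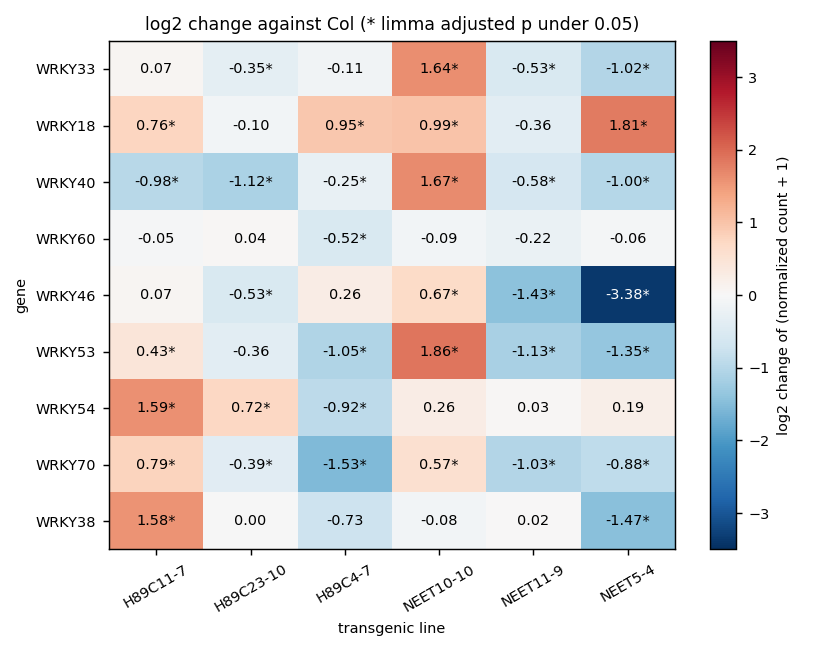
Log2 change against Col of the 9 tested WRKY genes in the 6 transgenic lines, on the log2(normalized count + 1) scale; colour and printed value give the change and an asterisk marks an adjusted p under 0.05 (limma). NEET10-10 has 6 genes called higher and none lower, and NEET5-4 has WRKY46 at -3.38 and WRKY18 at 1.81.

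Compared directly, lines of 1 construct differed in these genes. NEET10-10 was higher than NEET11-9 in 6 of the 9 genes and lower in 0 (28% of all genes called), and higher than NEET5-4 in 6 and lower in 1, WRKY18 (28.1% called). WRKY38 is 1 of the 6 above NEET5-4 and is near the floor. Its normalized counts were 8.17, 6.02 and 5.36 in NEET10-10 and 1.84, 1.03 and 2.96 in NEET5-4. WRKY46 differed 16.5-fold, WRKY53 9.24-fold, WRKY40 6.35-fold and WRKY33 6.31-fold between NEET10-10 and NEET5-4. AtNEET had means of 32837 in NEET10-10 and 18191 in NEET5-4, and its part in these differences was not tested. H89C11-7 was higher than H89C23-10 in 7 of 9 genes (22.9% called), with WRKY40 and WRKY60 not called. WRKY38 is among those 7 and among the 5 that follow, again with its high level in H89C11-7. H89C11-7 was higher than H89C4-7 in 5 genes and lower in WRKY40, a count near the share of all genes called (63.6%). The largest of these differences were 5.70-fold in WRKY54 and 4.996-fold in WRKY70.

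Between constructs, H89C4-7 and NEET5-4 had close AtNEET levels, and 3 of 9 WRKY genes were higher in H89C4-7 and 4 lower. That count is near the share of all genes called (67.4%). WRKY46 was 12.4-fold higher in H89C4-7 (limma adjusted p = 9.96e-17), WRKY33 1.87-fold and WRKY40 1.67-fold. WRKY54, WRKY18, WRKY70 and WRKY60 were lower there, by 2.16-fold, 1.82-fold, 1.57-fold and 1.37-fold. At 2-fold or more, 2 genes were left in this comparison (18.9% of all genes), and likewise 2 between H89C11-7 and H89C23-10 (3.07%). Against NEET10-10, H89C4-7 was lower in 7 genes and higher in 0 (66.3% called), with WRKY53 7.55-fold and WRKY70 4.29-fold lower. The number called, 7 of 9, is near that share. Of all 20699 genes, 6777 were called lower and 6937 higher. Among the 7 WRKY genes, WRKY46 is lost without replicate 1 of H89C4-7 (limma adjusted p = 0.152). It is also lost without replicate 1 (limma adjusted p = 0.0937) or replicate 3 (limma adjusted p = 0.0519) of NEET10-10. With 1 mean per line, the 3 H89C lines against the 3 NEET lines gave 0 called genes of 9 by limma, as of all 20699 genes (0% called), and 0 of the 9 had an unadjusted p under 0.05. Treating the 18 libraries as the units instead gave 6 called WRKY genes of 9, near the share of all genes called (12856 of 20699). That spread leaves out the differences between lines. The largest difference was in WRKY46 (log2 1.31 higher in H89C, SE 0.94), and the NEET and H89C line means overlapped in all 9 genes.

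Across the 21 libraries, WRKY33 and WRKY53 were the most alike pair of members (Pearson's r = 0.916 on log2 values, n = 21), followed by WRKY33 and WRKY40 (r = 0.880) and WRKY53 and WRKY70 (r = 0.837). WRKY18 and WRKY40 had r = 0.111. The 3 libraries of a group share their line and are not independent points, so these are descriptions. Among all tested genes outside the list, the most like WRKY53 were SYP122, a syntaxin of the plasma membrane (r = 0.962), and CYP706A2 (r = 0.940). WRKY40 was most like AT2G30020 (r = 0.965) and WRKY7 (r = 0.946). WRKY33 was most like AT1G66090 (r = 0.945), WRKY46 like AT2G18690 (r = 0.958) and WRKY70 like CYP71B7 (r = 0.957). The gene most like WRKY18 was DIN10, a dark-inducible gene of sugar starvation (r = 0.938), and those most like WRKY54 and WRKY38 were AT1G16350 (r = 0.950) and AT5G05250 (r = 0.903). The gene most like WRKY60 reached r = 0.862.

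Genes known to act around these factors were counted in the same comparisons. Their counts stand against the shares of all tested genes called in each line, from 10.9% in NEET11-9 to 66.6% in H89C4-7. Of 16 genes of the rapid wound and touch response, 14 were tested, and all 14 were higher in NEET10-10, with a median log2 change of 1.00. The calcium-binding gene TCH3 rose 3.29-fold there, the zinc finger gene SZF1 2.62-fold and the ethylene response factor gene ERF6 2.72-fold. In NEET5-4, 11 of the 14 were lower and 2 higher. The higher ones were TCH4, a cell wall enzyme gene that rose 5.11-fold, and TCH3, which rose 2.84-fold, while ZAT12 fell 3.31-fold. In the other lines the counts higher and lower were 4 and 7 in H89C11-7, 1 and 8 in H89C23-10, 5 and 4 in H89C4-7, and 0 and 5 in NEET11-9. Without the first libraries of Col and NEET10-10 the fall in NEET11-9 was called for 9. In that run 2643 of all 20660 tested genes were called in NEET11-9. The MAP kinase gene MPK3 rose 1.63-fold in NEET10-10 (limma adjusted p = 1.43e-08). Of 9 tested genes for MAP kinases, their activators and VQ proteins, 4 were higher and 1 lower in NEET10-10, none was called in NEET11-9, and 5 were higher and 2 lower in H89C4-7. Both of the last counts are near the shares of all genes called, 10.9% and 66.6%.

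Of 16 salicylic acid and defence genes, 14 were tested, and H89C11-7 had 11 higher and 0 lower, the reverse of NEET11-9 with 0 higher and 7 lower. CBP60g, an activator of salicylic acid synthesis, had a mean of 995 ± 39.0 (SD, n = 3) in Col, 1944 ± 56.3 in H89C11-7, 1544 ± 19.6 in NEET10-10, 153 ± 8.84 in NEET11-9 and 124 ± 7.58 in NEET5-4. PBS3, an enzyme of salicylic acid synthesis, fell 10.6-fold in NEET11-9 and 19.5-fold in NEET5-4 (limma adjusted p = 2.66e-11 and 4.57e-14). NEET10-10 had 8 of the 14 higher and 3 lower, NEET5-4 had 4 and 5, H89C4-7 had 5 and 5, and H89C23-10 had 4 and 1. Of 6 genes of camalexin and ethylene synthesis that WRKY33 is known to act on or near, 5 were higher and 1 lower in H89C11-7, 3 higher in NEET10-10, 4 lower in NEET5-4, and 3 lower in NEET11-9. CYP71A12, a cytochrome P450 gene of camalexin and indole carbonyl nitrile synthesis, had a mean of 1519 ± 241 in Col, 5881 ± 380 in H89C11-7, 2108 ± 132 in NEET10-10 and 6.58 ± 1.49 in NEET5-4. In H89C4-7, 5 of these 6 fell and the ethylene synthesis gene ACS2 rose 32.0-fold (limma adjusted p = 7.51e-18). H89C23-10 had 1 of the 6 lower.

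**Figure D5:**
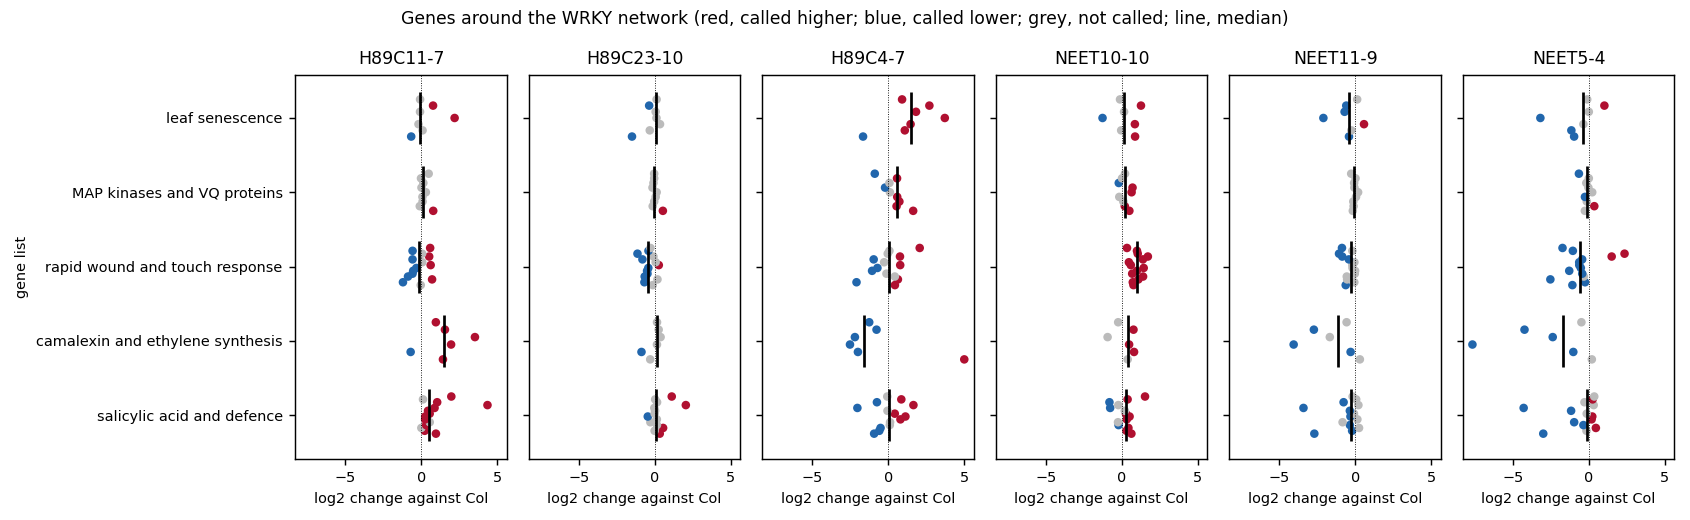
Log2 change against Col of tested genes in 5 lists around the WRKY factors, 1 panel per line; points are genes (red called higher, blue called lower, grey not called) and black bars are list medians. All 14 rapid response genes lie above 0 in NEET10-10, and 11 of the 14 fell in NEET5-4.

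Of 7 tested senescence genes, 6 were higher and 1 lower in H89C4-7, where WRKY53, WRKY54 and WRKY70 were lower and 66.6% of all genes were called. SEN1 rose 6.52-fold there and the transcription factor gene NAP fell 3.16-fold. The counts higher and lower were 2 and 1 in H89C11-7, 0 and 2 in H89C23-10, 3 and 1 in NEET10-10, 1 and 4 in NEET11-9, and 1 and 3 in NEET5-4. Without the first libraries of Col and NEET10-10 they were 2 and 2 in H89C23-10, 4 and 0 in NEET10-10 and 2 and 3 in NEET5-4, with the other 3 lines at the same counts. Of 5 tested abscisic acid genes, H89C4-7 had 4 higher and 1 lower, and the transcription factor gene DREB2A rose 9.47-fold. Of 62 other WRKY genes, 54 were tested, and the counts higher and lower were 31 and 11 in H89C4-7, 18 and 7 in H89C11-7, 7 and 2 in H89C23-10, 22 and 2 in NEET10-10, 5 and 15 in NEET11-9, and 9 and 12 in NEET5-4. With those 2 libraries left out, they were 27 and 13 in H89C4-7, 15 and 11 in H89C11-7, 5 and 5 in H89C23-10, 14 and 3 in NEET10-10, 4 and 21 in NEET11-9, and 6 and 18 in NEET5-4. Of all 20660 genes tested in that run, 13940, 8481, 5099, 5434, 2643 and 6708 were called in these lines, in that order. WRKY25, WRKY6 and WRKY26 rose 3.87-fold, 3.29-fold and 4.07-fold in H89C4-7, and WRKY29 was higher in H89C11-7 by 2.23-fold and lower in NEET11-9 by 2.13-fold and in NEET5-4 by 1.81-fold. Storage genes of seeds, 5 in all, summed to a mean of 78.2 in Col (libraries from 7.35 to 200.3), 11.6 in NEET10-10, 27.6 in NEET11-9, 34.8 in NEET5-4, 159 in H89C23-10, 314 in H89C11-7 and 473 in H89C4-7, and their part in the WRKY changes was not tested.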

How the data were processed

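Whole-seedling RNA of 21 samples was sequenced, and groups came from the labels. The table's values are a normalized signal: the authors scaled each library's gene counts with its own size factor. The submitters' processing notes name FastQC 0.11.7, STAR 2.4.0.1, DESeq2 1.20.0 and TAIR10. No source used here gives the read counter or strand setting, so antisense overlaps cannot be told apart. Whole reads were recovered for 100% of values within 0.001.

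Tests used limma-trend 3.58.1 (R 4.3.3) on log2(normalized count + 1), which understates changes of low genes. The fit took all 21 libraries with a mean for each group (14 residual degrees of freedom) and the 20699 genes passing the filter. Calls needed a Benjamini-Hochberg adjusted p under 0.05 over all of them. Constructs were compared on line means. Alternatives were pseudocounts of 0.1 and 5, no filter, TMM scaling, only the 2 groups compared, a replicate block, a 2-fold limit, each library left out, and edgeR 4.0.16 and DESeq2 1.42.0 on recovered reads. Leaving out replicate 1 of Col and NEET10-10 together was added after seeing the data. Replicates differed by a chi-square of 1.43 to 15.4 for each degree of freedom, beyond sampling noise. The fits were tested on simulated data.

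The members, lists and tests were chosen with earlier results of these data known. Named genes are the members, AtNEET, the 3 genes with the smallest adjusted p in a list and comparison, the 2 genes most like each member, and antisense neighbours. Among listed genes ABI4, ERF109, JAZ8, NIMIN1, PR1, SAG12 and SIB2 did not pass the filter.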

Additional observations from a re-analysis of the deposited data

Results flagged for a closer look

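In 15 cases, each 1 gene in 1 pair of lines of the same construct, both lines were called against Col by limma with opposite signs and the difference between them was called too. The cases fall in 5 of the 6 such pairs. How many of all tested genes meet the same rule was not counted, so 15 cannot be called many or few. All pairs share the Col libraries, and each difference is given as log2. Where both lines lie on opposite sides of the same Col libraries, their difference adds both changes. A call of the difference therefore nearly follows from the calls of both lines.

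Between NEET10-10 and NEET11-9 the difference was 2.17 for WRKY33, 2.25 for WRKY40, 2.1 for WRKY46, 2.99 for WRKY53 and 1.59 for WRKY70, with NEET10-10 above Col and NEET11-9 below it. Between NEET10-10 and NEET5-4 it was 2.66 for WRKY33, 2.67 for WRKY40, 4.05 for WRKY46, 3.21 for WRKY53 and 1.45 for WRKY70, again with NEET10-10 above and NEET5-4 below Col.

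Between H89C11-7 and H89C4-7 it was 1.49 for WRKY53, 2.51 for WRKY54 and 2.32 for WRKY70, with H89C11-7 above Col and H89C4-7 below it. Between H89C23-10 and H89C4-7 it was 1.64 for WRKY54, with H89C23-10 above Col. Between H89C11-7 and H89C23-10 it was 1.18 for WRKY70, with H89C23-10 below Col. The adjusted p of these differences (limma) ran from 1.96e-18 for WRKY33 between NEET10-10 and NEET5-4 to 4.38e-07 for WRKY54 between H89C23-10 and H89C4-7. Given how the cases were picked, these values are not further support. The cause of none of these differences was tested.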

How the results depend on the processing

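No member changed direction past the threshold under any alternative run. Pseudocounts of 0.1 and 5, TMM scaling and the replicate block changed no call of a tested member, and the block also left 23 of the 54 steps between neighbouring groups called; the numbers did not pair the libraries (correlation of deviations from -0.068 to 0.089, with 7 of 21 libraries closest to their own number). With no filter WRKY62 was tested too and called higher in H89C11-7 against Col (log2 1.45, adjusted p = 0.0258). Fitting only the 2 groups compared moved the count in H89C23-10 against Col from 5 to 3, and the counts over all genes from 4568 to 2430 there, from 6277 to 2497 in NEET10-10 and from 2261 to 865 in NEET11-9. They rose from 4750 to 6793 in H89C11-7 against H89C23-10, from 13174 to 13885 in H89C11-7 against H89C4-7 and from 13941 to 14472 in H89C4-7 against NEET5-4. Lost calls were WRKY33 and WRKY54 (adjusted p = 0.0688) in H89C23-10, WRKY40 in H89C4-7 (0.0581) and WRKY38 in NEET5-4 (0.0519), and WRKY33 was gained in H89C11-7 against H89C4-7 (0.00108). A limit of 2-fold left 2 members in H89C11-7, 1 in H89C23-10, 2 in H89C4-7, 3 in NEET10-10, 3 in NEET11-9 and 5 in NEET5-4 against Col. Of all 20699 genes it left 865, 289, 3286, 387, 327 and 816 in these lines. Between lines it left 4 members in H89C11-7 against H89C4-7 (2671 of all genes) and 5 in H89C4-7 against NEET10-10 (3485). It left 2 in H89C4-7 against NEET5-4 (3910) and 2 in H89C11-7 against H89C23-10 (636). Over libraries in place of lines, H89C against NEET gave 6 members, with 12856 of all 20699 genes called. edgeR changed 1 member call and DESeq2 3.

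Leaving out each library in turn, the count against Col ran from 5 to 6 in H89C11-7, 3 to 6 in H89C23-10 (3 without its replicate 1), 5 to 7 in H89C4-7, 6 to 6 in NEET10-10, 5 to 6 in NEET11-9 and 7 to 7 in NEET5-4. It ran from 6 to 7 in H89C11-7 against H89C4-7, 7 to 8 in H89C4-7 against NEET5-4, 6 to 8 in H89C4-7 against NEET10-10, 7 to 7 in H89C11-7 against H89C23-10 and 0 to 0 between constructs, and the called steps in the order from 21 to 27. Counts over all genes moved in these runs too. Between 20619 and 20692 genes were tested. Those called against Col ran from 6450 to 8395 in H89C11-7, 3287 to 5149 in H89C23-10 and 12855 to 14089 in H89C4-7. They ran from 5185 to 6183 in NEET10-10, 1370 to 2874 in NEET11-9 and 5245 to 6933 in NEET5-4. Between lines they ran from 12124 to 13743 in H89C11-7 against H89C4-7 and 13070 to 14439 in H89C4-7 against NEET5-4. They ran from 12829 to 14209 in H89C4-7 against NEET10-10 and 3574 to 5669 in H89C11-7 against H89C23-10. Without replicate 1 of H89C23-10, that line against Col went from 4568 of 20699 genes called to 3500 of 20688. WRKY33 was called lower in H89C4-7 without Col replicate 1 (log2 -0.27). The causes were not tested. Depth limits WRKY38 and WRKY62.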
